A study of Mus musculus with 6 samples.

Results

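Heat-shock proteins and chaperones were examined as one gene module in RNA of the mouse suprachiasmatic nucleus (SCN), the hypothalamic nucleus that holds the master circadian clock. Members were all genes whose symbol begins with Hspa, Hspb, Dnaja, Dnajb, Dnajc, Hsf or Cct and the number of a family member, or with Hsp90, together with Hsph1, Hspd1, Hspe1 and Bag1 to Bag6. The rule named 91 of the 17645 genes listed in at least 1 library, and 88 of the 91 were listed in all 6 libraries. It works on names alone, so it also takes in genes whose main role lies outside protein folding, such as Hspb11, a part of the intraflagellar transport machinery of cilia, and Hsf2bp, a binding partner of HSF2.

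The series compares SCN of female C57BL/6 mice in 3 libraries labelled V and 3 labelled r1r2V. Mice were taken in the dark at zeitgeber time 12 to 14 h, the hours after lights off, and each library was made from equal amounts of RNA of 2 SCN. The series' title describes a knockout of the nuclear receptors Rev-erbα and Rev-erbβ (genes Nr1d1 and Nr1d2) in GABAergic neurons, the inhibitory class that makes up most of the SCN. By that title the other cells of the tissue would keep both genes, which was not tested here. Here r1r2V is read as the knockout and V as its control, and the groups are called by these labels. The sources used here do not give the age of the mice, the Cre driver, the meaning of V or any allele that the groups share. Nor do the labels say whether the pools of a group came from separate litters or days, and the p-values therefore cover only the spread between these libraries. In such bulk samples, fewer cells of a type and less RNA per cell cannot be told apart.

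Libraries held 15729603 to 17780928 expected counts. Nr1d1, the first targeted gene, was not lower in the libraries labelled r1r2V: with counts scaled to a common library size (CPM), V averaged 58.8 ± 3.27 and r1r2V 167 ± 25.7 (SD, n = 3 each; edgeR quasi-likelihood test, adjusted p = 8.24e-05). Nr1d2 stood at 175 ± 6.01 and 242 ± 28.6 CPM (SD, n = 3 each), with an edgeR adjusted p of 0.0553. Gene-level counts do not show whether part of a transcript is missing, so they do not check the labels, and each direction below rests on the labels alone. Replicates scattered more in r1r2V: the chi-square statistic per degree of freedom between pairs of libraries was 11.7 to 13.5 there and 3.85 to 5.58 within V. Defining markers of SCN neurons were above 0 in every library.

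Chaperones bind unfolded or newly made proteins and keep them from aggregating while they fold. HSP70 proteins do this in cycles of ATP hydrolysis that J-domain (DNAJ) proteins start and that HSP110 and BAG proteins reset by exchanging nucleotide, and HSP90 finishes the folding of client proteins such as kinases and steroid receptors. Heat-shock factor 1 (HSF1) raises the inducible members when unfolded protein builds up, by binding heat-shock elements in their promoters. In many tissues a part of this gene group also cycles over the day with body temperature and feeding.

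Stretches around transcription starts are shown first for members that hold recognition sequences of the stress pathways, whether or not these genes changed. Dnajb5, the member that passed the test below, holds none of the motifs named here in its windows and is therefore not shown. Sequences are from RefSeq (GRCm38.p6), 5′ to 3′ on the gene's own strand, with capitals marking the motif match. A 3-unit heat-shock element was searched as the triplets GAA, TTC and GAA with any 2 bases (NN) between neighbours, on both strands, from 250 bases before to 50 bases after each transcription start. The first stretches are those of Hspe1, Dnajb6 and Hsph1, genes of 3 different chaperone classes that all hold the 3-unit element.
Hspe1, chr1:55088053-55088082, plus strand: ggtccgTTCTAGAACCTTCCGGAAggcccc
Dnajb6, chr5:29735843-29735872, plus strand: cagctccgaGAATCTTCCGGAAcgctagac
Hsph1, chr5:149636279-149636308, minus strand: gctgcagaTTCTGGAAAGTTCtcctcagta
Not all of these bases lie upstream: the Hsph1 stretch lies just after the start, inside an exon of Hsph1, and by GENCODE M21 the Dnajb6 stretch falls in an exon of Dnajb6 and the Hspe1 stretch in an exon of Hspd1. In all, 4 members held this element (these and Hspd1, which shares its promoter region with Hspe1). It was in 6 of the 93 windows found for 73 matched members, or 6.45%, beside 0.603% of all 32851 windows. Windows of Dnajb6 overlap each other, as do those of Hsph1, and hold the same match. The windows of Hspd1 and Hspe1 overlap too, and their matches are the same bases read on opposite strands. Shares of windows, here and below, can thus count the same bases more than once.

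The 2-unit form of the element, GAA and TTC or TTC and GAA with NN between them, is contained in some 3-unit matches and is commoner, in 24.7% of member windows and 15.1% of all windows. It is shown for the inducible HSP70 gene Hspa1a and the small heat-shock protein gene Hspb1, whose levels are given below.
Hspa1a, chr17:34972207-34972296, minus strand: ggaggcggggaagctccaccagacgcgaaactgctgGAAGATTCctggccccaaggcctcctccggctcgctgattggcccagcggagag
Hspb1, chr5:135887779-135887868, plus strand: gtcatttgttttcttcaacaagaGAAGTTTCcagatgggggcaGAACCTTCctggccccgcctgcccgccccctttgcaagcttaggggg
The neighbouring gene Hspa1b holds the same 90 bases at chr17:34959289-34959378, and the 250 bases before the start of Hspa1a and Hspa1b differ at 3 positions.

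A different element, the endoplasmic reticulum (ER) stress response element (CCAAT and CCACG with any 9 bases between them, on both strands), was found in 3 members that all work in the ER, in 3.23% of member windows and 0.119% of all windows. These are Hspa5 (BiP, the HSP70 of the ER), Hsp90b1 (GRP94, the HSP90 of the ER) and Dnajc3 (a J-domain co-chaperone of BiP).
Hspa5, chr2:34772020-34772049, plus strand: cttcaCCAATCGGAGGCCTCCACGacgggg
Dnajc3, chr14:118937812-118937901, plus strand: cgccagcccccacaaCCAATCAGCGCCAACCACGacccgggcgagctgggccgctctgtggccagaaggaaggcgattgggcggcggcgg
Hsp90b1, chr10:86705525-86705664, minus strand: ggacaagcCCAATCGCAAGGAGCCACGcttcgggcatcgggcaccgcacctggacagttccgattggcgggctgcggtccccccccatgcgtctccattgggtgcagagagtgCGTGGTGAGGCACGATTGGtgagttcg
By GENCODE M21 the Hspa5 stretch lies in an exon of Hspa5, and those of Dnajc3 and Hsp90b1 lie in no exon. Of the clock-linked elements, the E-box CACGTG was in 9.68% of member windows and 7.15% of all, and the RORE, the element that Rev-erb receptors bind, was in 0 of the 93 member windows and 0.384% of all. A match is a description of the sequence, and no match says only that these letters are not in this window.

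Levels of the members spanned a wide range. By FPKM (fragments scaled by transcript length and library size, so that genes can be compared), 20 of the 91 members averaged at least 100 and 12 averaged under 1. The order was led by Hspa8 (HSC70, the constitutive cytosolic HSP70) at 1407 ± 46.4 FPKM in V and 1583 ± 93.3 in r1r2V (SD, n = 3 each). Both cytosolic HSP90 genes followed, the inducible Hsp90aa1 at 805 ± 24.1 and 932 ± 81.4 FPKM and the constitutive Hsp90ab1 at 691 ± 13.4 and 723.5 ± 7.79 (SD, n = 3 each). The ER pair Hsp90b1 and Hspa5 came next with overlapping ranges in both groups, 255 to 312 FPKM over the 6 libraries for Hsp90b1 and 259 to 315 for Hspa5. The inducible HSP70 genes lay far lower, Hspa1a at 7.12 ± 0.679 FPKM and Hspa1b at 3.96 ± 0.543 in V (SD, n = 3 each), and the factor Hsf1 averaged 15.1 FPKM over all libraries.

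**Figure D1:**
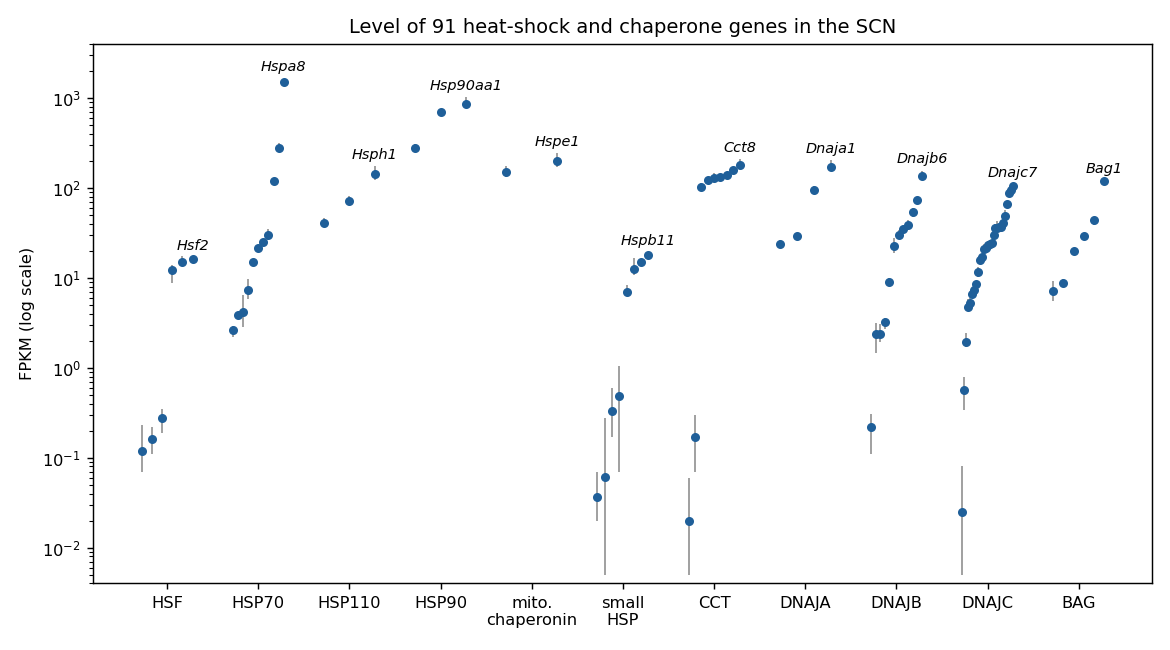
Level of each member by class, as mean FPKM of the 6 libraries on a log axis (dots), with lines from the lowest to the highest library and values of 0 drawn at the bottom of the axis. Hspa8, Hsp90aa1 and Hsp90ab1 stand at the top, and the 7 abundant CCT subunits lie together between 103 and 182 FPKM.

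Of the members, 82 had enough counts to be tested. The 9 that had not (Cct6b, Cct8l1, Hsf3, Hspb2, Hspb3, Hspb7, Hspb9, Dnajb7 and Dnajc5b) averaged 0.02 to 0.49 FPKM. In the comparison of r1r2V with V, 1 of the 82 rose, the J-domain gene Dnajb5, where 0.298% of the 14438 genes tested rose and 0.118% fell (edgeR quasi-likelihood test, adjusted p under 0.05). DESeq2 called 2 members higher, Dnajb5 and Hsph1, where it called 0.478% of all genes higher and 0.277% lower. None of the 82 fell by edgeR or by DESeq2, and 1 had an unadjusted edgeR p under 0.05 on the lower side. At that unadjusted level 8 members (9.76%) lay higher, beside 3.95% of all genes higher and 3.63% lower. The log2 fold change was above 0 for 56 of the 82 (68.3%), beside 52.5% of all genes, and its median was 0.07, beside 0.01.

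Libraries of the groups did not overlap, with r1r2V higher, for 10 members (12.2%; 6.87% of all genes): Dnajb5, Hsph1, Hspe1, Dnajc15, Hsp90aa1, Hspa4l, Hspa1l, Hspb8, Dnajc3 and Hsp90ab1. They did not overlap with r1r2V lower for 4 members (4.88%; 7.63% of all genes): Dnajc17, Dnajc27, Dnajc11 and Dnajc16. The plot of fold changes by class shows where these sit: every tested member of the HSP110, HSP90, mitochondrial chaperonin and CCT classes lay above 0, and the DNAJC class was spread around it.

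**Figure D2:**
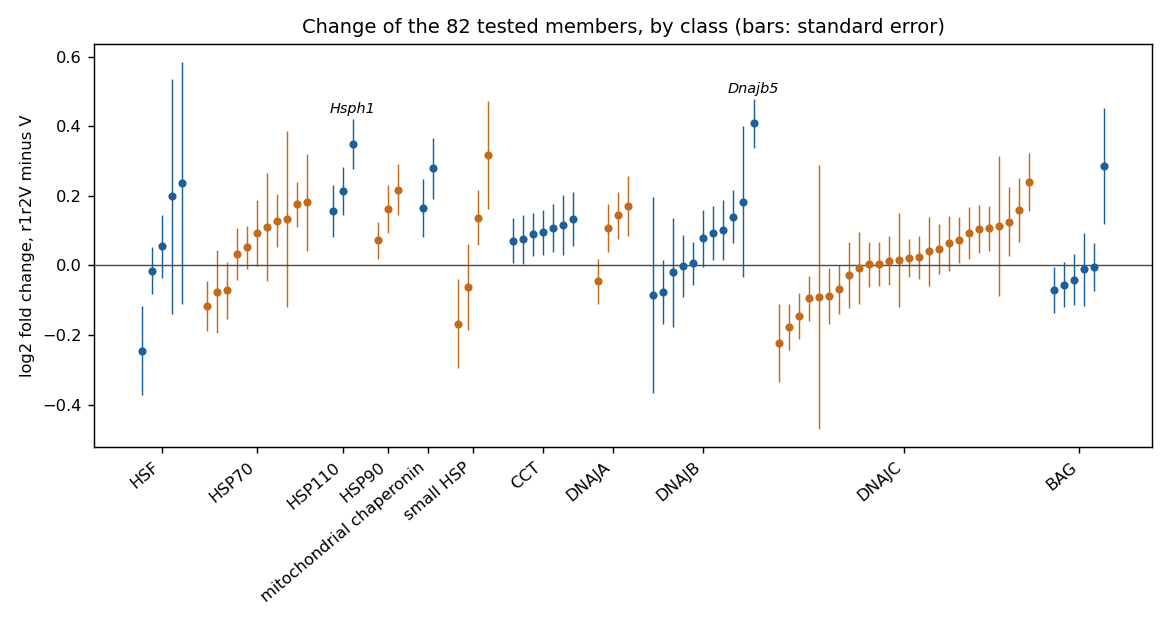
Log2 fold change of r1r2V against V (with standard error) for the 82 tested members, by class. Values run from -0.25 (Hsf4) to 0.41 (Dnajb5), and Dnajb5 alone passed the edgeR threshold.

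The factors of the family did not move as a group. Hsf1, the main switch of the heat-shock response, stood at 32.9, 33.1 and 33.2 CPM in V and 39.2, 32.7 and 31.2 in r1r2V. One r1r2V library lay above all V libraries and the others below them (log2 fold change 0.05, edgeR adjusted p = 0.891). Hsf2, a factor active in development and in proteasome stress, was between 39.0 and 42.8 CPM in all 6 libraries, with mixed groups (log2 fold change -0.01, edgeR adjusted p = 0.966). Hsf4, a factor known for the lens, read 22.2, 19.4 and 22.0 CPM in V and 20.7, 14.4 and 18.5 in r1r2V. The groups overlapped there too, and the log2 fold change of -0.25 was the lowest of all tested members (edgeR adjusted p = 0.678). Of the class, 0 of 5 tested members passed the edgeR test, and none had an unadjusted p under 0.05.

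Among HSP70 genes 8 of 11 had a log2 fold change above 0, with a median of 0.09, and 0 passed the edgeR test. Hspa8 read 2938, 2765 and 2755 CPM in V and 2928, 3337 and 3284 in r1r2V. Replicates 4 and 5 of r1r2V lay above all V libraries and replicate 1 within their range. The log2 fold change was 0.18 (edgeR unadjusted p = 0.0236, adjusted p = 0.579).

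Hspa5 read 652, 656 and 634 CPM in V and 632, 779 and 712 in r1r2V, again with replicates 4 and 5 high and replicate 1 at the level of V (log2 fold change 0.13, edgeR adjusted p = 0.701). Hspa9, the HSP70 of mitochondria, read 359, 342 and 336 CPM in V and 340, 375 and 360 in r1r2V, a log2 fold change of 0.05 (edgeR adjusted p = 0.839). These genes thus shared the order of the r1r2V libraries, with replicate 4 highest and replicate 1 lowest. Hspa2, an HSP70 known from male germ cells, had the lowest value of its class at -0.12 (edgeR adjusted p = 0.716), and Hspa1l, the third HSP70 gene beside Hspa1a and Hspa1b, the highest at 0.18 (edgeR adjusted p = 0.761).

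The stress-induced pair went in another order. Hspa1a read 18.4, 17.9 and 21.3 CPM in V and 25.8, 20.4 and 15.9 in r1r2V, and Hspa1b read 9.48, 12.3 and 10.5 in V and 17.5, 10.1 and 7.81 in r1r2V. In both, replicate 1 of r1r2V was the highest of all libraries and replicate 5 the lowest. The log2 fold changes were 0.11 and 0.13 (edgeR adjusted p = 0.868 and 0.906), and they turned to -0.08 and -0.27 without r1r2V replicate 1. Their transcripts are 99.2% identical over 2201 aligned bases, so how the counts divide between the 2 genes is uncertain.

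HSP110 proteins, the nucleotide exchange factors and disaggregation partners of HSP70, had the second largest member. Hsph1 (HSP105; chromosome 5, 149616843 to 149636498, minus strand) read 424, 431 and 411 CPM in V and 493, 594 and 526 in r1r2V. All r1r2V libraries lay above all V libraries. The log2 fold change was 0.35 ± 0.07 (SE; 1.27-fold), with an edgeR adjusted p of 0.128. DESeq2 called it at an adjusted p of 0.00200, edgeR called it without r1r2V replicate 1 at 0.0464, and over all alternatives the adjusted p ran from 0.00200 to 0.682.

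The other HSP110 genes lay on the same side. Hspa4l (APG-1) read 135, 134 and 129 CPM in V and 142, 158 and 161 in r1r2V, without overlap (log2 fold change 0.21, edgeR unadjusted p = 0.0108, adjusted p = 0.475). Hspa4 (APG-2) read 309, 323 and 294 CPM in V and 312, 376 and 343 in r1r2V. Its groups overlapped through r1r2V replicate 1 (log2 fold change 0.16, edgeR adjusted p = 0.662).

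All HSP90 genes had values above 0 and 0 of 3 passed the edgeR test. Hsp90aa1 (chromosome 12, 110691036 to 110696395, minus strand) read 2278, 2219 and 2141 CPM in V and 2328, 2827 and 2564 in r1r2V. The groups did not overlap, although r1r2V replicate 1 lay close to the highest V library, and the log2 fold change was 0.22 ± 0.07 (SE; edgeR unadjusted p = 0.0146, adjusted p = 0.522). Hsp90ab1 read 1652, 1634 and 1701 CPM in V and 1733, 1772 and 1735 in r1r2V. This was a smaller step, also without overlap (log2 fold change 0.07, edgeR adjusted p = 0.747). Hsp90b1 read 727, 696 and 677 CPM in V and 716, 837 and 797 in r1r2V, with replicate 1 inside the range of V (log2 fold change 0.16, edgeR unadjusted p = 0.0410, adjusted p = 0.633).

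The mitochondrial chaperonin consists of the HSP60 barrel (Hspd1) and its HSP10 lid (Hspe1), whose genes lie head to head on chromosome 1 and share 112 exon bases on opposite strands. Hspe1 (55088148 to 55091317, plus strand) read 133, 124 and 118 CPM in V and 138, 170.2 and 146 in r1r2V. The groups did not overlap (log2 fold change 0.28, edgeR unadjusted p = 0.00960, adjusted p = 0.471). Hspd1 (55077833 to 55088243, minus strand) read 331, 324 and 302 CPM in V and 320 (replicate 1), 401 and 352 in r1r2V, so that replicate 1 fell within the range of V. The log2 fold change of Hspd1 was 0.17 (edgeR adjusted p = 0.672). The sources used here do not say whether reads were counted by strand.

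The CCT complex, the cytosolic chaperonin that folds actin and tubulin, was the most even class. All 7 tested subunits had log2 fold changes between 0.07 and 0.13, and 0 passed the edgeR test, none with an unadjusted p under 0.05. Cct8, the most abundant of them, read 411, 396 and 390 CPM in V and 401, 490 and 422 in r1r2V. Cct2 read 250, 240 and 248 CPM in V and 243, 276 and 269 in r1r2V. In each the replicate 4 library of r1r2V was the highest and replicate 1 lay at the level of V (edgeR adjusted p = 0.695 for Cct8 and 0.734 for Cct2). Each of the 7 subunits had its highest value in r1r2V replicate 4.

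Small heat-shock proteins hold unfolded proteins without using ATP, and only those with Hspb names were counted here. The 8 members summed to 53.5 ± 1.89 CPM in V and 56.8 ± 2.13 in r1r2V (SD, n = 3 each). Genes of this kind with other names lie outside the rule. Hspb1 (HSP27) read 8.75, 9.24 and 9.20 CPM in V and 11.7, 8.79 and 13.4 in r1r2V. Replicate 4 of r1r2V lay within V and the other replicates above it, a pattern unlike that of the abundant chaperones (log2 fold change 0.32, edgeR adjusted p = 0.662). Hspb6 (HSP20) was at the other end of the class with -0.17 (edgeR adjusted p = 0.756). Hspb8, the small heat-shock partner of BAG3, stood at 0.14 (edgeR adjusted p = 0.695) and Hspb11 at -0.06 (edgeR adjusted p = 0.909).

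J-domain proteins direct HSP70 to its substrates, and Dnajb5 was the member of the module that rose. Dnajb5 (chromosome 4, 42949867 to 42959425, plus strand) read 65.4, 64.2 and 60.3 CPM in V and 89.7, 82.6 and 79.7 in r1r2V. Every r1r2V library lay above every V library, with a gap wider than the range of either group. The means were 63.3 ± 2.68 and 84.0 ± 5.13 CPM (SD, n = 3 each), a log2 fold change of 0.41 ± 0.07 (SE; 1.33-fold; edgeR unadjusted p = 0.000186, adjusted p = 0.0454). Its value lay near the threshold: over all alternatives the adjusted p ran from 0.000972 (DESeq2) to 0.373 (without V replicate 4). Whichever 1 library was left out, the edgeR call was lost, with an adjusted p of 0.0756 to 0.373. The log2 fold change stayed between 0.36 and 0.44 in those runs. No exon of Dnajb5 overlaps another listed gene.

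No other DNAJ gene passed the edgeR test, of 41 tested in 3 classes. Dnajb1 (HSP40, an HSF1 target and feedback regulator) read 111, 108 and 112 CPM in V and 126, 127 and 102 in r1r2V, where replicate 5 was the lowest library and the others the highest (log2 fold change 0.10, edgeR adjusted p = 0.781). Dnaja1, a farnesylated HSP70 partner, read 546 (replicate 2), 533 and 519 CPM in V and 537, 685 and 577 in r1r2V. Its replicate 1 again fell among the V libraries (log2 fold change 0.17, edgeR adjusted p = 0.666). Dnajb6, which keeps polyglutamine proteins from aggregating, read 228, 221 and 209 CPM in V and 218, 260 and 246 in r1r2V. Its log2 fold change was 0.14 (edgeR adjusted p = 0.683), with the same library order among the r1r2V replicates.

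The DNAJC class, the most varied in function, had a median log2 fold change of 0.02 over 26 tested genes, 17 of them above 0. Dnajc5 (cysteine string protein of synaptic vesicles) read 398, 401 and 402 CPM in V and 391, 420 (replicate 4) and 408 in r1r2V, and Dnajc6 (auxilin, which uncoats clathrin vesicles) read 336, 333 and 317 in V and 300, 347 and 348 in r1r2V. Neither synaptic gene showed a separation of the groups (log2 fold changes 0.02 and 0.01, edgeR adjusted p = 0.938 and 0.968). Dnajc15, a regulator of the mitochondrial respiratory chain, read 24.5, 26.1 and 25.9 CPM in V and 27.5, 32.9 and 30.0 in r1r2V. Its groups did not overlap (log2 fold change 0.24, edgeR unadjusted p = 0.0175, adjusted p = 0.546).

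Dnajc27, a Rab-like GTPase with a J domain, read 203, 196 and 205 CPM in V and 170.1, 172 and 192 in r1r2V. It was the member with an unadjusted p under 0.05 on the lower side, and its groups did not overlap (log2 fold change -0.18, edgeR unadjusted p = 0.0243, adjusted p = 0.579). Dnajc17 had a log2 fold change of -0.22 at 9.34 to 12.3 CPM (edgeR adjusted p = 0.666).

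BAG proteins release nucleotide and substrate from HSP70. Of 6 tested, 0 passed the edgeR test and 1 had a log2 fold change above 0, with a class median of -0.03. That one was Bag3, the HSF1-induced member that sends aggregates to autophagy, at 17.2, 14.8 and 17.1 CPM in V and 22.8, 22.7 and 14.2 in r1r2V. Replicates 1 and 4 of r1r2V lay above V and replicate 5 was the lowest library (log2 fold change 0.29, edgeR adjusted p = 0.699). Bag1, an abundant nucleotide exchange factor at a mean of 119 FPKM, had a log2 fold change of 0.00 (edgeR adjusted p = 0.991), and the lowest was Bag5 with -0.07 (edgeR adjusted p = 0.797).

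The r1r2V libraries differed from each other in the module. Summed over members, the CPM was 17047, 16646 and 16382 in V and 17052, 19308 and 18260 in r1r2V, with means of 16692 ± 335 and 18207 ± 1129 (SD, n = 3 each). Replicate 1 of r1r2V was level with the highest V library, and replicate 4 stood highest. Of the 82 tested members, 40 (48.8%) had their highest CPM in r1r2V replicate 4, beside 25.5% of all genes. Replicate 1 of r1r2V was highest for 11 members (20.2% of all genes) and replicate 5 for 10 (16.7% of all genes). In V, replicate 2 was highest for 10 members (11.6% of all genes), replicate 3 for 4 (9.66%) and replicate 4 for 7 (16.2%). The lowest library was V replicate 4 for 29 members (35.4%; 16.4% of all genes), r1r2V replicate 1 for 23 (18.6% of all genes) and r1r2V replicate 4 for 8 (24.8% of all genes).

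**Figure D3:**
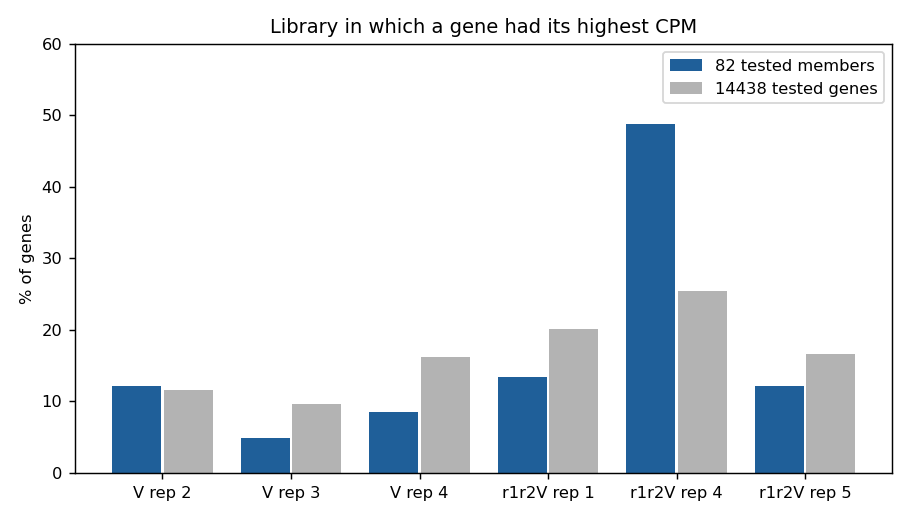
Share of genes, in percent, whose highest CPM fell in each library, for the 82 tested members (blue) and all 14438 tested genes (grey). The bar of r1r2V replicate 4 reaches 48.8% for members and 25.5% for all genes.

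The excess in replicate 4 was uneven across classes. Relative to the V mean, the median log2 level of the mitochondrial chaperonins was 0.07 in r1r2V replicate 1, 0.39 in replicate 4 and 0.19 in replicate 5. HSP90 genes gave 0.06, 0.26 and 0.19 in the same order, and CCT subunits -0.02, 0.17 and 0.10. HSP110 genes were at 0.10, 0.28 and 0.28, with replicates 4 and 5 alike. DNAJC genes stayed at 0.00, 0.02 and 0.01, and all genes tested had medians near 0. The spread among replicates was larger in r1r2V than in V for 62 of 82 members (75.6%; 71.8% of all genes).

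**Figure D4:**
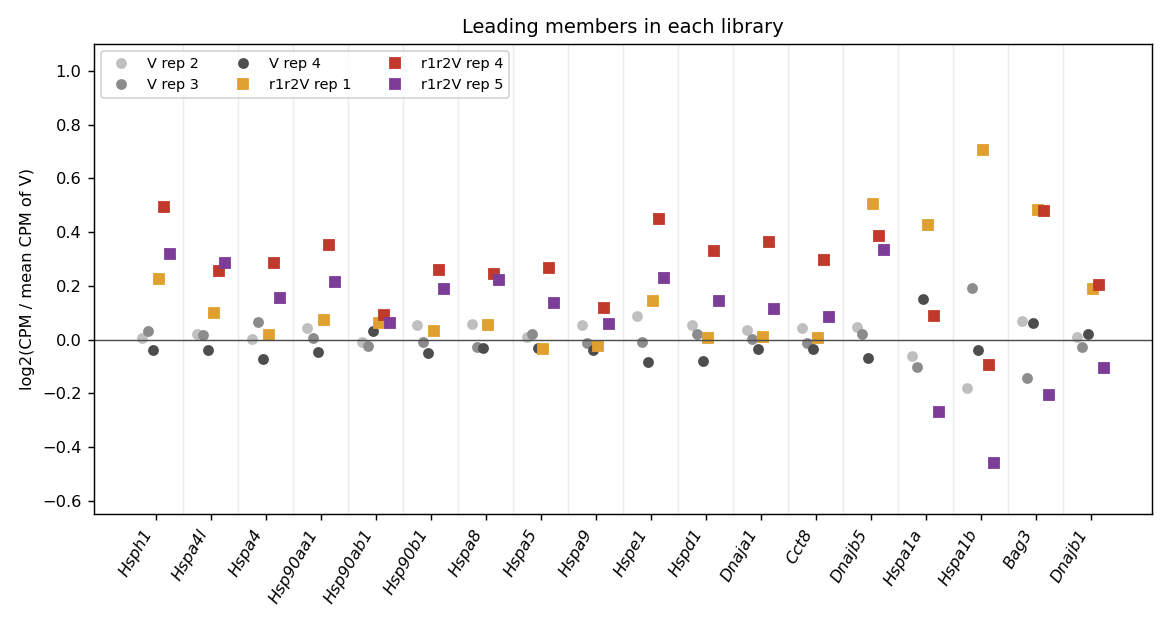
Log2 of each library's CPM over the V mean for 18 members, with 1 point per library. The 18 are a selection and do not stand for the module. All of them have a log2 fold change above 0, and none of the 26 tested members below 0 is drawn. Points of r1r2V replicate 4 are the highest for most of the abundant chaperones, whereas Hspa1a and Hspa1b reach their highest value in r1r2V replicate 1.

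Markers of cell types also differed among these libraries, and 13 lists were summed. Choroid plexus markers, all 6 above 0 in every library, summed to 102 to 141 CPM in V and 85.0 to 177 in r1r2V, with the highest sum in replicate 4. Markers of neighbouring hypothalamic neurons, all 11 above 0, summed to 1877 to 2144 CPM in V and 1324 to 2397 in r1r2V, with the lowest sum in replicate 4. Meningeal fibroblast markers, all 7 above 0, summed to 87.4 to 121 CPM in V and 84.7 to 206.5 in r1r2V, with the highest sum in replicate 5. Oligodendrocyte markers, all 8 above 0, summed to 5441 to 7588 CPM in V and 5320 to 6863 in r1r2V. Their highest sum was in V replicate 4, the library that was lowest for 29 members. By log2 fold change, all 7 fibroblast markers lay above 0 (median 0.44), as did all 8 microglial markers (median 0.10). Of ependymal markers 0 of 8 did (median -0.08), and of SCN neuron markers 4 of 14 (median -0.13), beside 52.5% of all genes. Relative to the V mean, the median fibroblast marker was at -0.08, 0.27 and 0.92 in r1r2V replicates 1, 4 and 5. Group ranges of the sums overlapped for every marker list, no marker passed the edgeR test, and the part of cell make-up in the results was not tested. Without r1r2V replicate 4, 51 members had a log2 fold change above 0 and the median was 0.04.

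Genes of related pathways were compared in the same fit, in 8 lists chosen with earlier results of these data known. All but the first list hold only genes outside the name rule. None of the genes in these 8 lists passed the edgeR test. The first list holds 20 HSF1 target genes described as heat-inducible. It includes Hsp90ab1, called constitutive above, so not all of its genes are mainly heat-induced. Of the 20, 14 are members, so its counts in part repeat those of the module and are not a separate result. All 20 had log2 fold changes above 0 (52.5% of all genes), with a median of 0.17. Of these, 8 had an unadjusted edgeR p under 0.05 on the higher side (3.95% of all genes) and 0 on the lower (3.63%), and 9 had r1r2V above V without overlap (6.87% of all genes). The 20 became 18 without r1r2V replicate 1 and 19 without r1r2V replicate 5. Their median relative to the V mean was 0.10, 0.25 and 0.19 in r1r2V replicates 1, 4 and 5. The top gene of this list outside the module was Chordc1, an HSP90 co-chaperone, at 96.9, 109 and 94.2 CPM in V and 128, 153 and 122 in r1r2V. Its groups did not overlap (log2 fold change 0.42, edgeR adjusted p = 0.173).

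Among 21 co-chaperones of HSP90 and HSP70 that the name rule leaves out, 16 had values above 0 (52.5% of all genes) and 5 below, and the median was 0.12. Chordc1 is in this list too, so it overlaps the HSF1 target list and is not a separate result. An unadjusted edgeR p under 0.05 was found for 7 on the higher side (3.95% of all genes) and 0 on the lower. The groups did not overlap for 9 with r1r2V higher (6.87% of all genes) and 1 with r1r2V lower (7.63%). Stip1 (HOP, which links HSP70 to HSP90) stood at 338 ± 13.2 CPM in V and 397 ± 30.7 in r1r2V (SD, n = 3 each; edgeR adjusted p = 0.421). Ahsa1 (AHA1, the activator of the HSP90 ATPase) stood at 143 ± 5.16 and 166 ± 6.52 CPM (SD, n = 3 each; edgeR adjusted p = 0.377), and St13 (HIP, which stabilises HSP70 on its substrate) at 93.7 ± 3.00 and 109.5 ± 5.54 CPM (SD, n = 3 each; edgeR adjusted p = 0.407). The groups did not overlap for Stip1, Ahsa1 or St13, and none of them passed the adjusted threshold.

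The other lists had medians between -0.02 and 0.13. Prefoldin and CCT partners had 8 of 14 values above 0 and a median of 0.03, and ER folding enzymes outside the module 10 of 19 and 0.00. Genes of the unfolded protein and integrated stress response had 11 of 20 above 0 and a median of 0.01. Mitochondrial proteostasis genes had 7 of 17 above 0 and a median of -0.02, beside the chaperonin pair at 0.28 and 0.17. Glucocorticoid-responsive genes had 10 of 15 above 0 and a median of 0.13, and hypoxia and metallothionein genes 11 of 16 and 0.06. Beside the 3.95% of all genes higher and 3.63% lower at an unadjusted edgeR p under 0.05, the prefoldin list had 0 of 14 higher and 1 lower, the unfolded protein list 0 of 20 and 1, and the mitochondrial list 0 of 17 and 0. The ER list had 2 of 19 higher and 1 lower, the hypoxia list 2 of 16 and 2, and the glucocorticoid list 5 of 15 and 1.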

How the data were processed

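RNA of SCN tissue was sequenced in 3 V and 3 r1r2V libraries. Per the submitters' processing notes, RSEM 1.2.12, Bowtie2 2.2.5, HISAT2 2.0.4, DESeq2, StringTie 1.0.4, GATK and Cufflinks 2.2.1 were used with build mm10, with no role or order stated. The authors deposited, per the file headers, an expected count and an FPKM value per gene and library, with 0.01 as the lowest FPKM listed; 9.88% of the expected counts were not whole. Genes not listed in a library were set to 0.

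Expected counts were rounded, genes with low counts were removed (filterByExpr, minimum count 10) and r1r2V was compared with V across 14438 genes with edgeR 4.0.16 (quasi-likelihood test, TMM scaling, Benjamini-Hochberg adjustment over all genes, threshold 0.05, two-sided). CPM values use TMM-scaled library sizes. Alternatives were DESeq2 1.42.0, limma 3.58.1 (voom, and log2(FPKM + 1 or 0.1)), other scalings and filters, and leaving out each library. The scripts were tested on simulated data. The pass mark of that check was set only for changes larger than that of any member here, so it gives no assurance for small changes. Near-identical transcripts were sought with BLAST+ 2.17.0, and exon overlaps in GENCODE M21, where 20 members share exon bases with another listed gene, among them Dnaja1, Cct6a, Cct7, Cct8, Dnajc17, Hspb6, Hspd1 and Hspe1; with strand use unknown, such shared bases leave their counts uncertain.

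The members and gene lists were chosen with earlier results of these data known. Named are the central genes of each class, those past the threshold or with an unadjusted p under 0.05, the extremes of each class at a mean of at least 1 CPM and its most abundant member. By this rule Dnaja3 was the lowest of DNAJA (log2 fold change -0.05, edgeR adjusted p = 0.869). Dnajb3 was the lowest of DNAJB (-0.08, edgeR adjusted p = 0.951), and Dnajc7 the most abundant of DNAJC (0.07, edgeR adjusted p = 0.794). Dnajc3, Dnajc11, Dnajc16 and Hspb8 were named after their values were seen. Chordc1, Stip1, Ahsa1 and St13 of the related lists also fall outside this rule. Each of them lay higher in r1r2V without overlap, while 5 of the 21 co-chaperones had log2 fold changes below 0.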

Additional observations from a re-analysis of the deposited data

How the results depend on the processing

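The count of members higher in r1r2V was 1 (Dnajb5). It became 2 with DESeq2 (Dnajb5 and Hsph1), 0 with limma-voom, 0 without a low-count filter, 0 with a filter of 1 CPM in 3 libraries, and 0 on log2(FPKM + 1) and on log2(FPKM + 0.1). It ran from 0 to 1 when 1 library was left out (1, Hsph1, without r1r2V replicate 1). With limma-voom and both other filters the adjusted p of Dnajb5 was 0.0501 to 0.0551. The count of members lower was 0 in every alternative run. Of 570 values of 38 named members, 12 in 8 members reversed, all on leaving out 1 library: Hsf1 (-0.0496 to 0.12), Hsf2 (-0.0461 to 0.0137), Hspa1a (-0.0777 to 0.26), Hspa1b (-0.27 to 0.35), Dnajc5 (-0.0036 to 0.0472), Dnajc6 (-0.0264 to 0.0823), Dnajb3 (-0.40 to 0.16) and Bag1 (-0.0405 to 0.0524). The cause was not tested. Members with a log2 fold change above 0 were counted under each alternative after seeing the data. They numbered 51 of 82 (62.2%) without r1r2V replicate 4 to 60 of 91 (65.9%) with no low-count filter. The main run had 56 of 82 (68.3%), so the highest count was not a higher share. No paired analysis was possible because V and r1r2V have a single replicate number (4) in common. The 9 members left untested had at most 34 counts over the 6 libraries together.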
